A study of Homo sapiens with 83 samples.

Results

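The mitochondrial ribosomal proteins are the nuclear-encoded protein subunits of the ribosome that works inside mitochondria. They were taken here as all genes whose symbol is MRPL or MRPS followed by a number and an optional letter, with a mean of at least 1 TPM (transcript abundance per length, scaled to the same total in every library) in either cell line. All 78 genes with such a symbol passed, 49 of the large subunit (MRPL) and 29 of the small subunit (MRPS), out of 60237 genes in the table, and all 78 were tested in both lines.

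The mitochondrial ribosome translates the few membrane proteins encoded by mitochondrial DNA, all of them subunits of the oxidative phosphorylation complexes. Its own proteins are made in the cytosol and imported, so their mRNAs are ordinary nuclear transcripts. Some of the proteins have a counterpart in the bacterial ribosome and others were added during the evolution of mitochondria. The MYC family of transcription factors is known for raising genes of ribosome production and mitochondrial biogenesis.

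RNA was sequenced from 2 established neuroblastoma cell lines, SHEP and SKNAS, both overexpressing N-MYC-ER, in which N-MYC is joined to the hormone-binding part of the estrogen receptor and becomes active when 4-hydroxytamoxifen is added. MYC-ON cells received 4-hydroxytamoxifen and MYC-OFF cells ethanol, in both cases 24 h before dexamethasone, which all cells of all groups received to align their clocks. Libraries were made every 4 h from CT24 to CT76, where CT is the number of hours after dexamethasone. SHEP was sampled as 2 separate time series (28 libraries without and 28 with activation) and SKNAS as 1 series (14 MYC-OFF and 13 MYC-ON libraries, the last ending at CT72). The fusion is expressed all the time, so MYC-OFF cells carry it as well. Each line stands for 1 engineered population, and p-values measure the spread between libraries of these few cultures, which may be technical. In bulk RNA, fewer cells of a kind and less RNA per cell cannot be told apart.

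Of the 6 adrenergic neuroblastoma markers listed, 2 reached a median of 1 TPM in SHEP and 3 in SKNAS. Of the 5 mesenchymal markers, 4 did so in SHEP MYC-OFF and 5 in the other groups. In SKNAS the summed adrenergic markers moved with the condition, from 244.2 to 556.1 TPM in MYC-OFF and from 75.6 to 231.8 in MYC-ON, without overlap. In SHEP they ran from 27.1 to 43.2 and from 36.7 to 54.2 TPM. The summed mesenchymal markers overlapped between conditions, at 3779 to 5164 and 3105 to 4754 TPM in SHEP and 767.3 to 2039 and 657.6 to 2569 TPM in SKNAS. Among them FN1, which encodes fibronectin, had a median of 364.0 TPM in SHEP MYC-OFF and 69.3 in MYC-ON. The part of these shifts in the members' differences was not tested. The median of log2(TPM + 1) over expressed genes lay between 3.93 and 4.17 in all SHEP libraries. In SKNAS it ran from 2.76 to 4.38. It was below 3.8 in 4 of the 14 libraries without and 10 of the 13 with activation, so the library median moved with the condition in SKNAS. In SHEP the MYC-ON library of series 2 at CT76 stood apart: its root mean square distance from the CT72 library before it was 0.563 on the log2 scale, against 0.304 to 0.396 for the other 51 neighbouring pairs. The libraries nearest to it were those of series 1 MYC-ON from CT64 to CT76, at 0.423 to 0.457.

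The promoters of the members are shown first, because most members moved together and the activated factor binds DNA. RefSeq promoter windows (GRCh38.p14, 250 bases before to 50 after a start site) were found for 69 of the 78 members. Of these, 9 held the letters CACGTG, the E-box read by MYC and other factors, which is 13% against 12.6% of the 10282 genes tested in SHEP that had a window. With the letters, the median SHEP difference was 0.58 on the log2 scale over the 9 members, and without them 0.55 over 60. Each is printed inside a stretch of 30 bases, with the E-box in capitals.
MRPL14 (chr6:44126223-44126252, - strand): caggtgtacacaCACGTGtgagtgtactag
MRPL22 (chr5:154940885-154940914, + strand): ttttcggaagccCACGTGctttcggccttt
MRPL36 (chr5:1799876-1799905, - strand): acgtgggcacgcCACGTGaccccccccccc
MRPL37 (chr1:54199985-54200014, + strand): tgcgcttcacctCACGTGaggattttccag
MRPL45 (chr17:38297023-38297052, + strand): cactcccgcgagCACGTGcgcgtcctcgct
MRPL49 (chr11:65121933-65121962, + strand): cggctCACGTGgggaaggccaggcctccca
MRPS18C (chr4:83455867-83455896, + strand): aatcataagcctCACGTGacctgccgcgta
MRPS2 (chr9:135499897-135499926, + strand): cgacggccaggtCACGTGactggggagcga
MRPS33 (chr7:141014763-141014792, - strand): gctcgggcggttCACGTGcatcacacaaat

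The E-box members ranged from MRPL36 and MRPS2, which rose by 1.00 each in SHEP, to MRPL14, at 0.04, and MRPL49, which fell by 0.19. The member with the largest rise, MRPS17, holds no CACGTG in its window. Its 250 bases before the start site (chr7:55951627-55951876, + strand, GRCh38.p14) have a GC content of 56% and 20 CG pairs.
MRPS17: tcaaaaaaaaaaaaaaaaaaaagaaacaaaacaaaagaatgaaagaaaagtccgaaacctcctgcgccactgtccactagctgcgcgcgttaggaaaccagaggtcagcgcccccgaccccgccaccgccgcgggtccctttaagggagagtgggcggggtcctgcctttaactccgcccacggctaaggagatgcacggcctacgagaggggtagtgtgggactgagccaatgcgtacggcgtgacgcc

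Motifs of other factors were searched on both strands in the same windows. The YY1 motif, whose letters are the capitals in the MRPL22 stretch at the head of the next lines, stood in 10 of the 69 members, 14.5%, against 2.43% of the genes tested in SHEP. All 10 were called higher in SHEP, as were 56 of the 69 members with a window. The median difference was 0.57 over the 10 against 0.55 for the 59 without the motif. The letters CCGGAAGT, read by ETS factors, stood in 12 members, 17.4% against 10.3%, in 10 of 42 large subunit and 2 of 27 small subunit genes, with a median difference of 0.29 against 0.55 for the 57 without it. The NRF1 motif stood in MRPL17 alone, 1.45% against 2.68%. The YY1 matches are printed in capitals because 9 of the 10 begin between bases 7 and 36 after the start site and run in the direction of transcription, while that of MRPL36 runs the other way. The NRF1 match of MRPL17 and the ETS match of MRPL52, the member that fell most, follow them, the latter on the opposite strand. A match of letters does not show that the factor binds there.
MRPL22 (chr5:154941093-154941122, + strand): gtagcgggagggcgaAAGATGGCGGCggca
MRPL36 (chr5:1799855-1799884, - strand): cccccccccGCCGCCATCTTccttcctggc
MRPL38 (chr17:75904858-75904887, - strand): gccggagggAAGATGGCGGCgccctggtgg
MRPL46 (chr15:88467360-88467389, - strand): ggagaacgaAAGATGGCGGCgcccgtaagg
MRPL50 (chr9:101398575-101398604, - strand): atctcatcgAAGATGGCGGCgcgatctgtg
MRPS10 (chr6:42217832-42217861, - strand): gggaccggcAAGATGGCGGCgcggacagcg
MRPS18A (chr6:43687762-43687791, - strand): aggtttttgAAGATGGCGGCcctcaaggct
MRPS18B (chr6:30617854-30617883, + strand): gcgtacgtcAAGATGGCGGCgtctgtatta
MRPS24 (chr7:43869478-43869507, - strand): gcttggcccAAGATGGCGGCctccgtgtgc
MRPS30 (chr5:44808951-44808980, + strand): tcgcgggcaAAGATGGCGGCggccaggtgt
MRPL17, NRF1 (chr11:6683402-6683431, - strand): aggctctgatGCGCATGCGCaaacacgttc
MRPL52, ETS (chr14:22829870-22829899, + strand): aggccacgcctACTTCCGGctaccccggct

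In SHEP, activated N-MYC-ER raised most mitochondrial ribosomal protein mRNAs of both subunits. A gene was called at an adjusted p of at most 0.05 (limma, Benjamini-Hochberg over 14362 genes) and a difference of at least 0.15 on the log2(TPM + 1) scale. Of the 78 members, 63 were called higher in MYC-ON, against 33% of all genes tested, and 4 were called lower, against 38.9%. The median difference was 0.55 over the members and -0.04 over all genes tested. Rises of at least 1.5-fold were called in 32 members, against 11.4% of genes, and rises of at least 2-fold in 7, against 3.46%. No member fell by 1.5-fold (13.8% of genes) or by 2-fold (4.29%). In 33 members every MYC-ON library lay above every MYC-OFF library, which held for 6.11% of genes. No member had every MYC-ON library below every MYC-OFF library, which held for 6.36%.

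**Figure D1:**
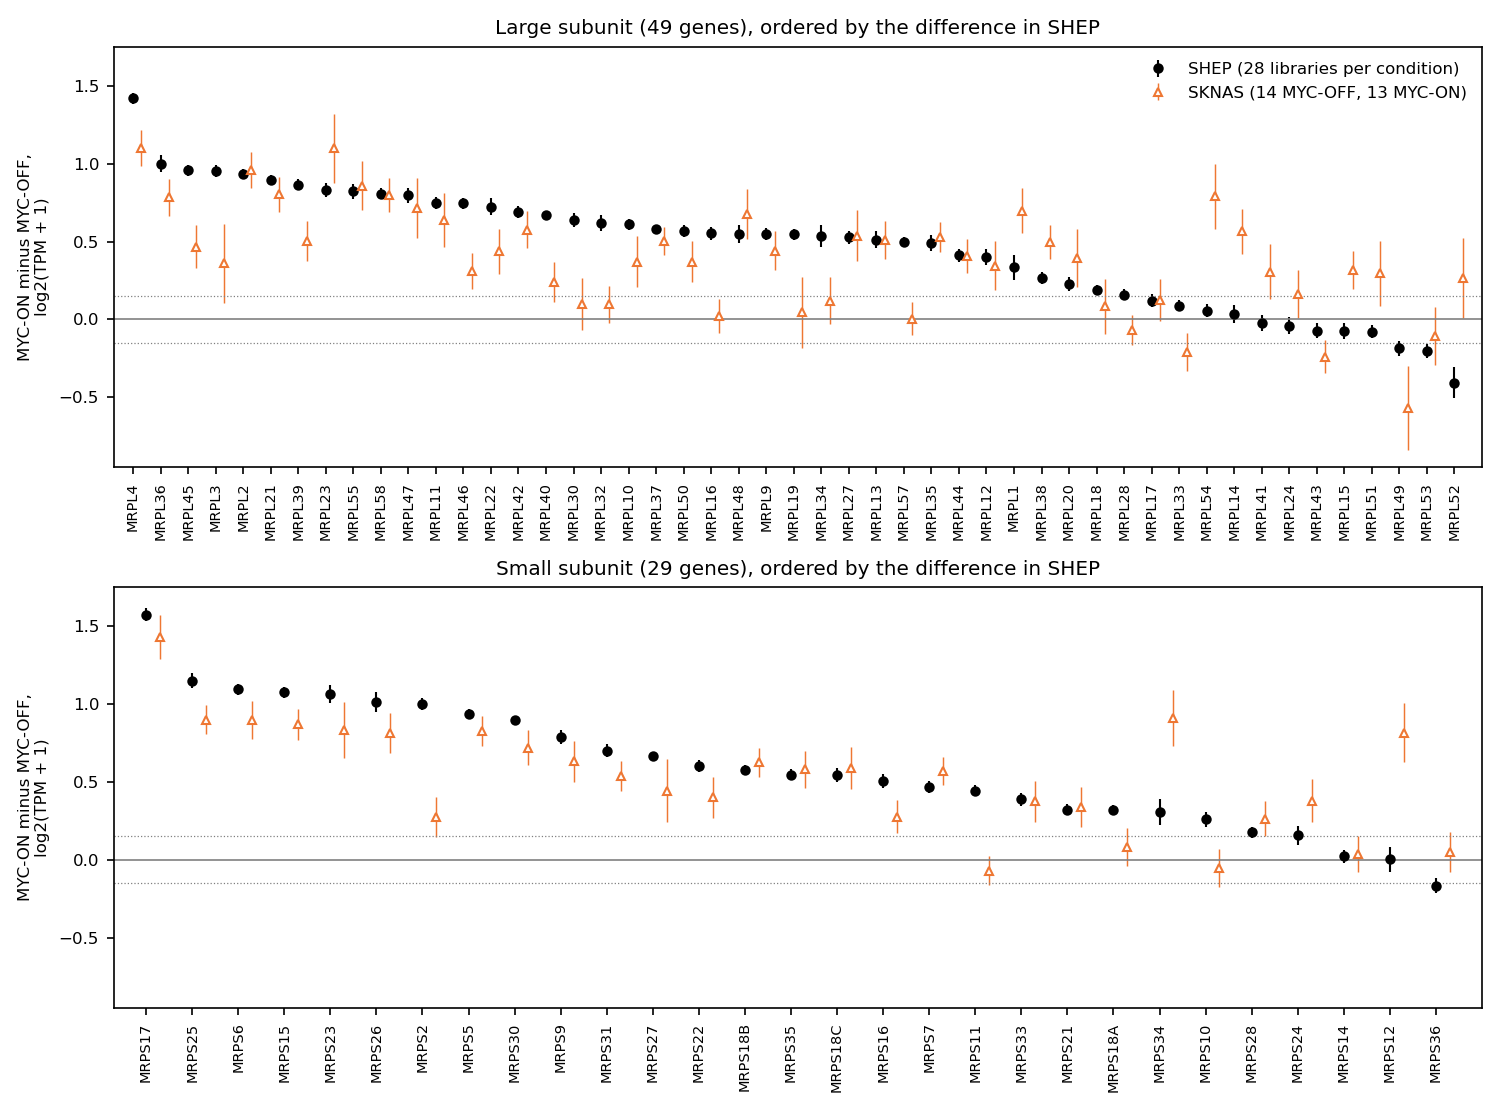
Difference between MYC-ON and MYC-OFF on the log2(TPM + 1) scale for the 49 large subunit genes (top) and the 29 small subunit genes (bottom), black circles for SHEP and open triangles for SKNAS, bars for the standard error from limma, dotted lines at 0.15 either way. Most points of both lines lie above 0, from MRPS17 at 1.58 in SHEP down to MRPL52, MRPL53, MRPL49 and MRPS36 below 0.

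Both subunits had the same median difference in SHEP, 0.55, with 37 of 49 large and 26 of 29 small subunit genes called higher. Of the 7 members past 2-fold on the log2(TPM + 1) scale, 6 were MRPS genes. Rises of at least 1.5-fold were called in 19 of 49 large and 13 of 29 small subunit genes. Among the 48 members with a bacterial counterpart 41 were called higher and 0 lower. Among the 30 without one, 22 were called higher, and all 4 members called lower belong to these 30. Over all genes tested 33% were called higher and 38.9% lower. The median differences were 0.54 with and 0.56 without a counterpart. In SKNAS 28 of the 48 and 20 of the 30 were called higher (13.7% of genes) and 0 lower. With the library median as a covariate there, 2 with a counterpart and 1 without were called lower. These counts were not tested against each other.

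MRPS17, a small subunit protein with a bacterial counterpart that binds the ribosomal RNA, rose most. Its gene (ENSG00000239789) lies on chromosome 7 from 55951877 to 55956500. In the 28 SHEP MYC-OFF libraries it ran from 22.5 to 29.3 TPM with a median of 25.3, and in MYC-ON from 60.6 to 97.2 with a median of 77.9. The ranges did not overlap, and the difference was 1.58 ± 0.04 (SE, adjusted p = 5.26e-33). An exon of NIPSNAP2, on the same strand, overlaps it. That gene was also higher, by 0.36 (adjusted p = 4.67e-12).

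MRPL4, a large subunit protein that lines the tunnel through which the new chain leaves, was the only large subunit member past 2-fold on the log2(TPM + 1) scale. It ran from 92.3 to 124.6 TPM in MYC-OFF (median 107.4) and from 238.1 to 338.1 in MYC-ON (median 290.9), a difference of 1.42 ± 0.03 (adjusted p = 6.23e-35). Again every MYC-ON library stood above every MYC-OFF library.

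The next small subunit genes were MRPS25 (1.15), MRPS6 (1.10), MRPS15 (1.08), MRPS23 (1.06) and MRPS26 (1.01). MRPS6 and MRPS15 have bacterial counterparts, and MRPS25, MRPS23 and MRPS26 do not. In each of the 5 the ranges of the 28 MYC-OFF and 28 MYC-ON libraries were separate, as for MRPS15, from 76.1 to 98.3 TPM in MYC-OFF and from 146.9 to 205.1 in MYC-ON. MRPS2 stood at 1.00 ± 0.04, its mean going from 55.4 ± 3.39 to 112.2 ± 13.2 TPM (SD, n = 28 each).

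In the large subunit MRPL4 was followed by MRPL36 (1.00), MRPL45 (0.96), MRPL3 (0.95) and MRPL2 (0.93). MRPL2 and MRPL3 sit close to the site of peptide bond formation. MRPL3 went from 116.7 ± 5.96 to 228.0 ± 24.3 TPM. MRPL45, which lies at the tunnel exit and has no bacterial counterpart, went from 44.2 ± 3.18 to 87.1 ± 10.9 TPM. Reads of its pseudogenes took 6.83% of the summed TPM of the gene and its copies. MRPL36 and MRPS2 lay just under the 2-fold limit on the log2(TPM + 1) scale, while their mean TPM rose 2.04-fold and 2.03-fold. The ranges of MRPL36 met, its lowest MYC-ON value of 82.6 TPM lying below the highest MYC-OFF value of 83.0.

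MRPL12, the counterpart of the bacterial stalk protein L7/L12, rose by 0.40 ± 0.05 (adjusted p = 6.04e-10). MRPL44, which resembles a ribonuclease, rose by 0.41 ± 0.04. MRPL58, a peptidyl-tRNA hydrolase built into the large subunit, rose by 0.81 ± 0.04. MRPS30, which carries a small subunit symbol although it sits in the large subunit, rose by 0.90 ± 0.03.

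The 3 homologues of the bacterial protein S18 rose to different degrees. MRPS18B, in the small subunit, rose by 0.58 ± 0.03 and MRPS18C, also in the small subunit, by 0.55 ± 0.04. MRPS18A, which sits in the large subunit, rose by 0.32 ± 0.03. MRPS18A had overlapping ranges, from 54.8 to 66.0 TPM in MYC-OFF and from 62.8 to 87.7 in MYC-ON. Those of MRPS18B and MRPS18C did not overlap.

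The members that fell in SHEP were MRPL52, MRPL53, MRPL49 and MRPS36. MRPL52 (chromosome 14 from 22829879 to 22835037), a large subunit protein without a bacterial counterpart, ran from 213.7 to 342.2 TPM in MYC-OFF with a median of 277.3. In MYC-ON it ran from 107.0 to 291.4 with a median of 237.0. The ranges overlapped, and the difference was -0.41 ± 0.10 (adjusted p = 3.91e-04). It was lower in MYC-ON in 26 of 28 pairs of libraries of the same series and CT. The fall was -0.20 in series 1 and -0.61 in series 2.

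MRPL53 fell by 0.20 ± 0.04 (adjusted p = 6.43e-05), from 176.5 ± 18.5 to 153.2 ± 17.3 TPM, and was lower in 27 of 28 pairs. MRPL49 fell by 0.19 ± 0.05 and MRPS36 by 0.17 ± 0.05. Both were no longer called after rescaling by median-of-ratios size factors (-0.14 and -0.12) or with the means of the 2 series as replicates, where the adjusted p rose to 0.0507 and 0.0722. MRPS36 bears the name of a small subunit protein and is known as a part of the 2-oxoglutarate dehydrogenase complex.

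In 11 members no change was called in SHEP, among them the most abundant of all. MRPL33, a small protein of the large subunit, ran from 558.8 to 742.8 TPM in MYC-OFF and from 534.9 to 818.7 in MYC-ON, a difference of 0.09 ± 0.04. It was 0.20 and called within series 1 alone. MRPS12, which shapes the decoding centre, differed by 0.003 ± 0.08, MRPS14 by 0.02 and MRPL15 by -0.08. A difference near 0 over the whole course can hold changes in both directions. In series 2 MRPS12 was at 99.4 TPM in MYC-ON and 86.0 in MYC-OFF at CT24, and at 32.8 and 84.1 at CT72. In series 1 MRPL15 was at 154.9 TPM in MYC-ON and 147.1 in MYC-OFF at CT24, and at 82.2 and 137.6 at CT72. The other 7 were MRPL14, MRPL17, MRPL24, MRPL41, MRPL43, MRPL51 and MRPL54, between -0.08 and 0.12.

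Levels per length differed widely among the members. Mean TPM in SHEP MYC-OFF ran from 10.01 for MRPL50, 19.2 for MRPS31 and 20.1 for MRPL48 to 273.2 for MRPL52, 386.7 for MRPS24 and 644.2 for MRPL33. The median over members was 65.5 TPM in MYC-OFF and 100.4 in MYC-ON. Pseudogene copies took 20.8% of the summed TPM of MRPS31 and its copies, the largest such share among members.

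The summed TPM of the small subunit genes rose more than that of the large subunit genes in SHEP. The small subunit sum had a median of 2211 TPM in MYC-OFF and 3379 in MYC-ON, 52.9% higher, with no overlap between the libraries. The large subunit sum had medians of 4804 and 6342 TPM, 32% higher, with ranges that met at 5166 and 5225. The ratio of the sums fell from 2.06 to 2.21 in MYC-OFF to 1.80 to 1.98 in MYC-ON. Without MRPL33, which alone made 9.07% of the members' TPM in MYC-OFF and 6.94% in MYC-ON, the ratio still went from between 1.79 and 1.95 to between 1.55 and 1.74. With genes placed by the structure (51 large, 26 small, MRPS36 left out) it went from between 2.23 and 2.41 to between 1.93 and 2.13. The medians of single genes were equal between subunits, and the sums weight abundant genes.

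**Figure D2:**
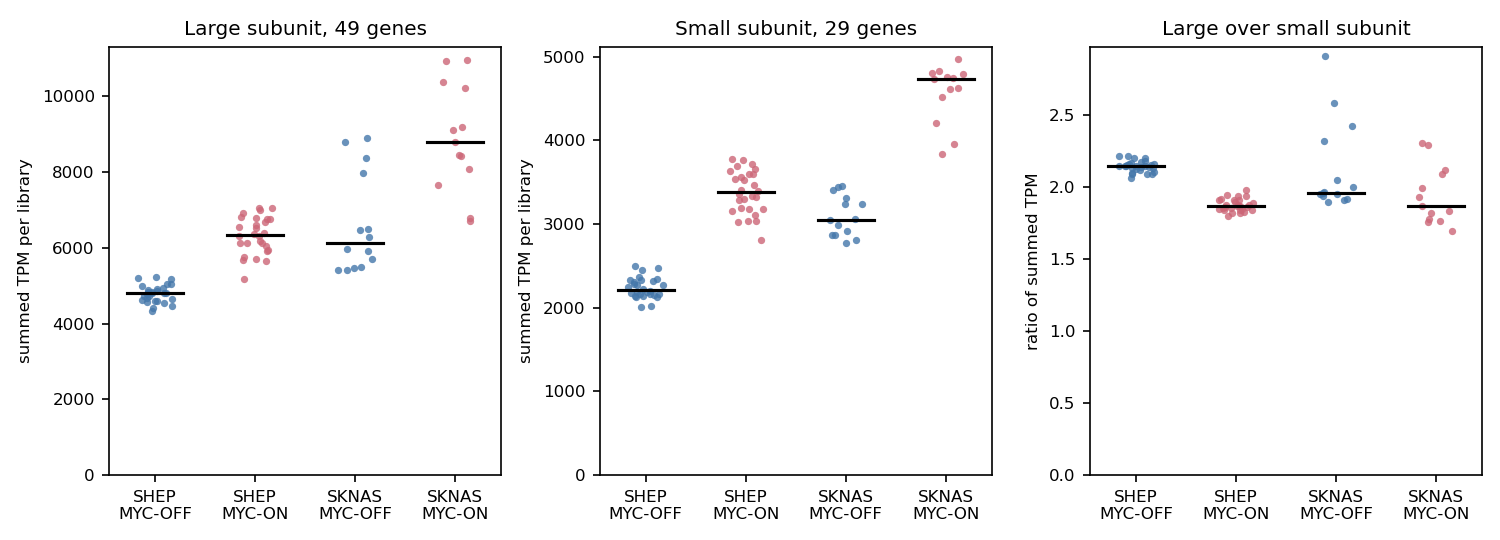
Summed TPM of the large subunit genes, of the small subunit genes, and their ratio in each library of the 4 groups, with a black line at the group median. In SHEP the small subunit sums of MYC-ON all lie above those of MYC-OFF and the ratios all lie below, while in SKNAS the ratios overlap.

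In SKNAS, too, activated N-MYC-ER came with higher levels of most members. By the same test over 13886 genes 48 were called higher, against 13.7% of all genes, and 0 lower, against 34.4%. At an unadjusted p under 0.05 (limma) the count was 54 members in either direction, 55.6% of all genes. Every MYC-ON library lay above every MYC-OFF library in 9 members (2.32% of genes) and below in 0 (2.09%). The median difference was 0.44 over members and -0.29 over all genes tested. The small subunit had 21 of 29 genes called higher with a median of 0.57 and the large subunit 27 of 49 with a median of 0.39. The members took a median of 0.924% of all TPM in MYC-OFF and 1.36% in MYC-ON, against 0.70% and 0.972% in SHEP.

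The condition and the state of the library moved together in SKNAS, so 3 further fits were made. With the library median as a covariate, 49 members were higher (28.3% of genes) and 3 lower (26.1%), namely MRPL53 (-0.54), MRPL33 (-0.38) and MRPS14 (-0.18). In the 10 MYC-OFF and 3 MYC-ON libraries with a median of at least 3.8, 48 were higher (21%) and 4 lower (27.5%), namely MRPL52 (-0.81), MRPL53 (-0.49), MRPL33 (-0.45) and MRPL43 (-0.31). After rescaling by size factors 64 were higher (27.6%) and 0 lower (23.9%). Within those 13 libraries, MYC-ON stood wholly above MYC-OFF in 41 members (14.4% of genes) and wholly below in MRPL33 and MRPL53 (18%).

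MRPS17 rose most in SKNAS as well, by 1.43 ± 0.14 (adjusted p = 1.23e-06). It ran from 29.9 to 85.5 TPM in the 14 MYC-OFF libraries (median 33.8) and from 72.2 to 139.6 in the 13 MYC-ON libraries (median 109.3), ranges that overlapped, and was higher in 13 of 13 pairs. Within the libraries of higher median it ran from 29.9 to 37.7 against 72.2 to 98.3. MRPL4 rose by 1.10 ± 0.11, from between 82.1 and 203.5 to between 249.2 and 383.2 TPM, without overlap.

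**Figure D3:**
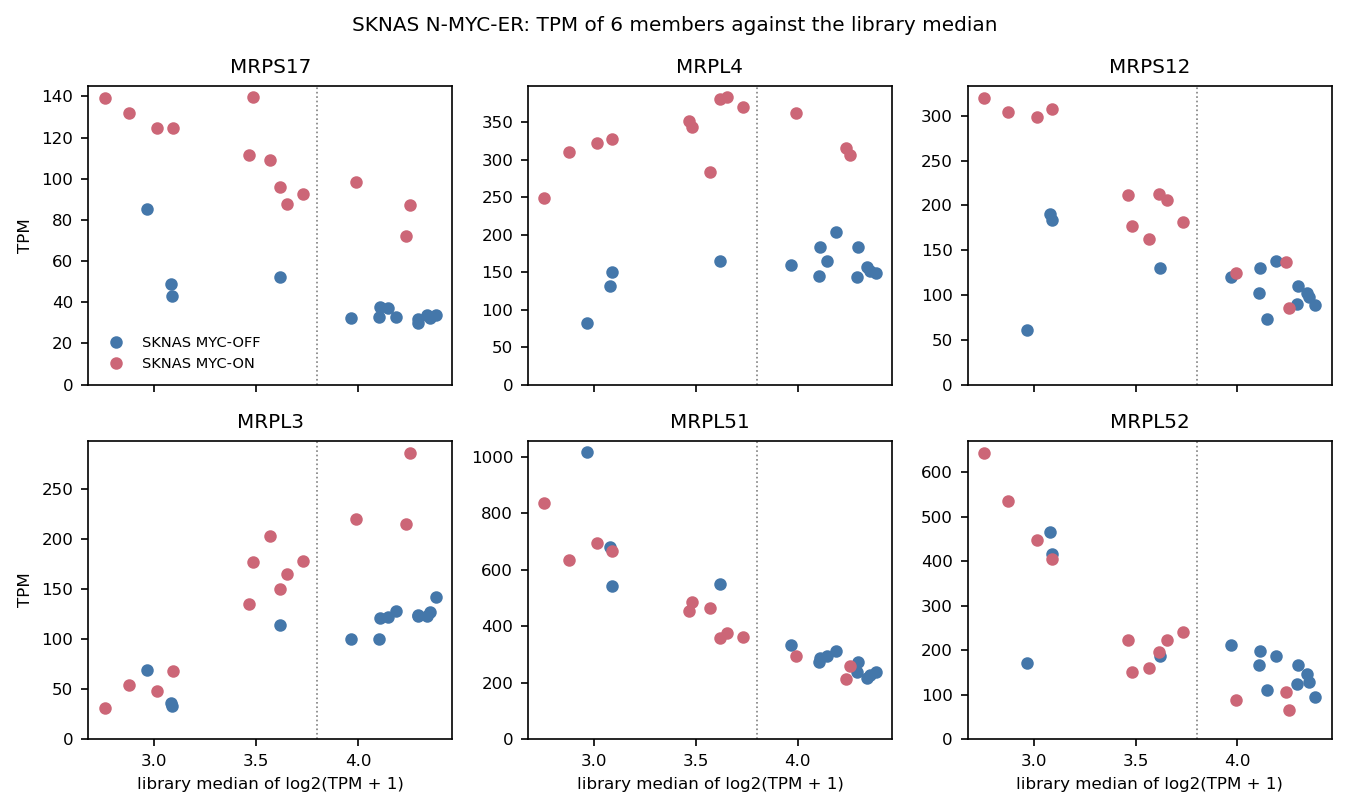
TPM of 6 members in each SKNAS library against that library's median of log2(TPM + 1), blue for MYC-OFF and red for MYC-ON, dotted line at 3.8. To the right of the line all MRPS17 and MRPL4 points of MYC-ON lie above those of MYC-OFF, MRPL51 and MRPL52 reach higher values to the left of it in both conditions, and the conditions of MRPS12 overlap to the right of the line.

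Other members also moved with the library median within a condition. In the 4 MYC-OFF libraries of lower median, MRPL51 ran from 542.9 to 1016 TPM, and in the other 10 from 217.0 to 333.5. MRPL3 went the other way, from 32.7 to 114.5 TPM in the 4 and from 100.5 to 142.4 in the 10. Over the 78 members, the difference between low-median and other MYC-OFF libraries had a Spearman correlation of -0.50 with the length of the canonical transcript, across genes that share the same libraries. Its part in the SKNAS comparisons was not tested beyond the fits given here.

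Higher levels in MYC-ON were called in both lines for 44 members (11.5% of the 12306 genes tested in both), in SHEP alone for 19 (22.1%), in SKNAS alone for 4 (2.31%) and in neither for 11 (64%). The difference between the lines was tested as an interaction. It was called for 34 members, 24 with a smaller effect in SKNAS (38.1% of 14870 genes) and 10 with a larger one (13.4%). With the library median as a covariate the counts were 28 (21.7%) and 6 (25.4%), and 22 members were called in the same direction in both fits. After rescaling they turned to 5 smaller (24.6%) and 20 larger (25.6%), so the direction of this difference over the members depends on the scaling. Without series 1 of SHEP 12 were smaller and 5 larger, and without series 2 the counts were 17 and 4.

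**Figure D4:**
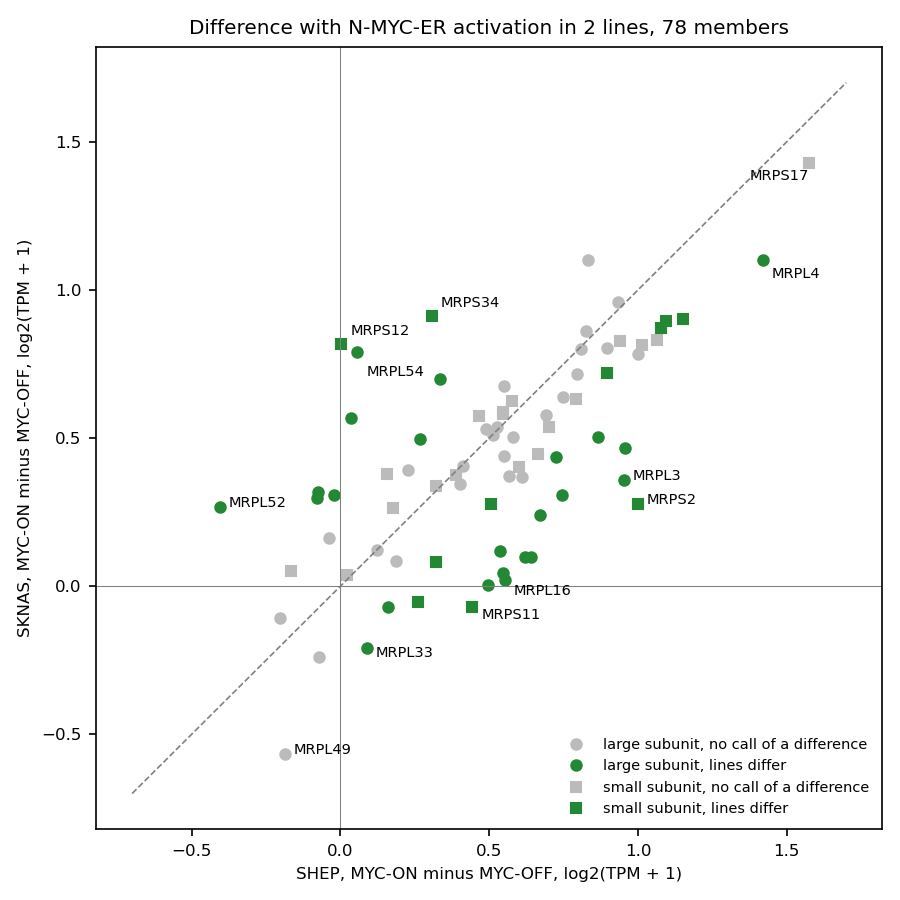
Difference between MYC-ON and MYC-OFF in SHEP (horizontal axis) and SKNAS (vertical axis) on the log2(TPM + 1) scale for 78 members, circles for the large and squares for the small subunit, green where the interaction was called, dashed line at equal effects. MRPS17 lies at 1.58 and 1.43, and MRPS2, MRPL3 and MRPS11 lie below the dashed line while MRPS12, MRPL54 and MRPS34 lie above it.

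MRPS2 differed most in the direction of a smaller effect in SKNAS. It rose by 1.00 in SHEP and by 0.28 ± 0.13 in SKNAS (adjusted p = 0.085), an interaction of -0.72 ± 0.09 (adjusted p = 2.88e-09) that was -0.60 with the covariate. Its level in MYC-OFF was 175.7 ± 37.9 TPM in SKNAS (n = 14) against 55.4 ± 3.39 in SHEP (n = 28). MRPS11, MRPL16, MRPL57 and MRPL32 were likewise called higher in SHEP and lay between -0.07 and 0.10 in SKNAS. MRPL32 was called in SKNAS at 0.32 in the libraries of higher median (adjusted p = 0.011) and at 0.47 after rescaling (adjusted p = 0.0244, limma), while the other 3 were not called in either.

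In the other direction, MRPS12 rose by 0.82 ± 0.19 in SKNAS (adjusted p = 0.00268, limma). In SHEP it differed by 0.003 over the whole course, being higher in MYC-ON early and lower late. It ran from 60.7 to 189.9 TPM in SKNAS MYC-OFF and from 85.3 to 320.4 in MYC-ON. Among libraries with a median of at least 3.8 the rise was 0.11 and was not called (adjusted p = 0.629), with 72.7 to 138.1 TPM in MYC-OFF and 85.3 to 137.3 in MYC-ON. The MRPS34 values were 0.91 over all SKNAS libraries and 0.18 in those of higher median (adjusted p = 0.474). MRPL54 rose by 0.79 over all and by 0.40 in those of higher median.

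Without activated N-MYC-ER most members were higher in SKNAS than in SHEP. The comparison of the MYC-OFF groups called 56 members higher in SKNAS, against 32.1% of 14926 genes, and 12 lower, against 46.4%. The median difference was 0.45 over members and -0.18 over all genes. Line and experiment cannot be told apart here. MRPL55 stood at 166.6 ± 40.9 TPM in SKNAS and 40.03 ± 4.73 in SHEP (2.00 ± 0.08), and MRPL20 at 356.0 ± 165.8 and 85.4 ± 7.09 (1.94 ± 0.10). MRPL33 differed most the other way, 249.5 ± 30.2 against 644.2 ± 41.4 TPM (-1.37 ± 0.05, adjusted p = 8.31e-22), followed by MRPL18 (-1.02) and MRPL40 (-0.67). The library median, below 3.8 in 4 of the 14 SKNAS MYC-OFF libraries, was not a covariate in this comparison. In those 4 MRPL20 ran from 494.0 to 785.3 TPM and in the other 10 from 231.8 to 303.0. MRPL55 ran from 188.9 to 253.9 TPM in the 4 and from 118.1 to 174.3 in the 10.

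Over culture time few trends were called in SHEP MYC-OFF and more in MYC-ON, over all genes as well as over the members. In MYC-OFF a linear trend was called for 0 members upward (5.78% of genes) and 3 downward (10.1%), namely MRPL49, MRPS10 and MRPS23, each between -0.08 and -0.09 per 24 h. In MYC-ON 6 rose (20.5%) and 28 fell (37%). The MYC-ON minus MYC-OFF difference itself went down with time in 25 members (27.3%) and up in 5 (16.1%). Of the large subunit 18 went down and 1 up, and of the small subunit 7 went down and 4 up. A downward change can be a shrinking rise, a growing fall, or a start near or above MYC-OFF that turns into a fall, the last as in MRPL49. In series 1 MRPL49 was at 61.8 TPM in MYC-ON and 60.4 in MYC-OFF at CT24, and at 34.4 and 54.3 at CT72. In series 2 it was at 59.6 and 56.1 TPM at CT24, and at 43.3 and 55.9 at CT60. After rescaling 19 went down (23%) and 13 up (20.7%).

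MRPL1, which forms the mobile stalk of the large subunit, had the steepest change, -0.48 ± 0.10 per 24 h (adjusted p = 6e-05). Series 1 MYC-ON fell from 45.1 TPM, the highest value of the group, to 10.2, the lowest, while MYC-OFF stayed between 19.9 and 27.7. In series 2 alone the change was -0.22 and was not called (adjusted p = 0.135). Over the whole course MRPL1 was called higher by 0.34 ± 0.08, and in series 1 alone its 0.25 was not called (adjusted p = 0.132).

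MRPS12 changed by -0.43 ± 0.09 and MRPS34 by -0.36 ± 0.08 per 24 h. In series 2 both fell in MYC-ON to the lowest values of their groups, 32.8 and 80.8 TPM, at CT72. In the CT76 library of series 2, the one that stood apart, they were at 89.0 and 185.2 TPM. Without it the changes were -0.50 and -0.43. The change of MRPS12 was called in each series alone, -0.27 in series 1 and -0.59 in series 2. That of MRPS34 was called in each series too, -0.13 (adjusted p = 0.0262, limma) and -0.59 (adjusted p = 0.00114, limma).

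MRPL14 (-0.34), MRPL32 (-0.34), MRPL49 (-0.34), MRPL20 (-0.30), MRPS26 (-0.29), MRPL12 (-0.29) and MRPL16 (-0.28) followed, and of these the 6 large subunit genes were called in each series alone. The MYC effect grew for MRPS16 (0.22 ± 0.05 per 24 h), MRPS9 (0.16), MRPL45 (0.14), MRPS5 (0.13) and MRPS15 (0.10), the last of which was not called without the CT76 library (adjusted p = 0.0564, limma). In series 1 alone only MRPS16 of these 5 was called (0.27), and MRPS9 stood at -0.0053. In series 2 alone MRPS9 (0.33) and MRPS5 (0.15) were called. In SKNAS no trend was called for any member in either condition, where 0% of genes were called in MYC-OFF and 0.0299% upward and 0.0823% downward in MYC-ON, and an unadjusted p under 0.05 (limma) was found for 7 members in MYC-OFF (36.4% of genes) and 2 in MYC-ON (6.08%).

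**Figure D5:**
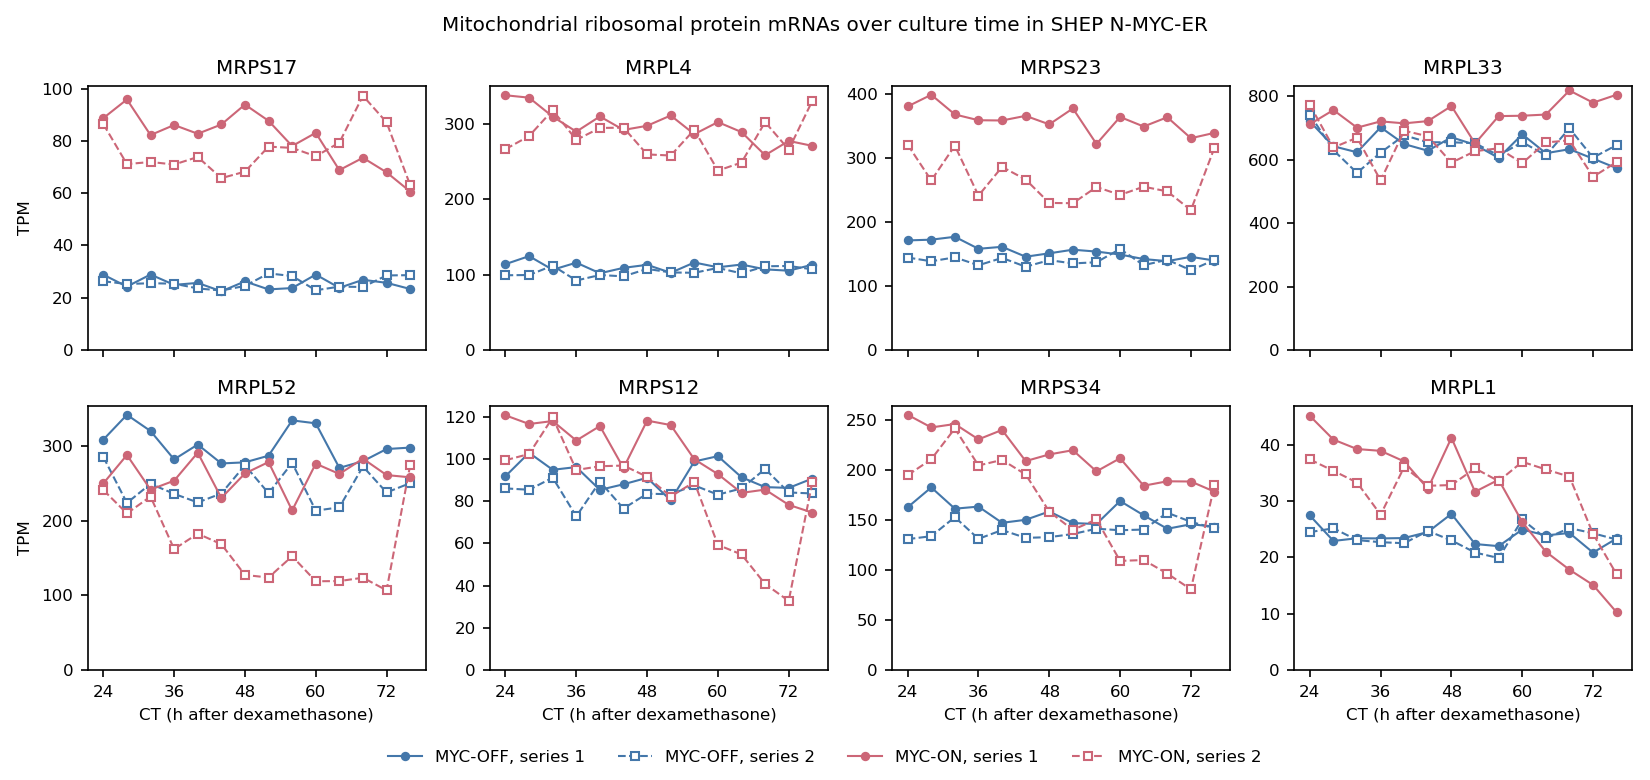
TPM of 8 members in SHEP against CT in hours after dexamethasone, blue for MYC-OFF and red for MYC-ON, filled circles and solid lines for series 1, open squares and dashed lines for series 2. MRPS17 and MRPL4 keep MYC-ON above MYC-OFF at every CT, and MRPL1 falls in series 1 MYC-ON to 10.2 TPM. In series 2 MYC-ON, before the CT76 library, MRPS12 and MRPS34 fall late. There MRPL52 falls mostly by CT48, from 241.4 TPM at CT24 to 127.5.

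The median MYC-ON minus MYC-OFF difference over the 78 members lay between 0.41 and 0.66 in series 1 of SHEP, between 0.40 and 0.64 in series 2 and between 0.12 and 0.68 in SKNAS. At the time point with the fewest, 63 members were above 0 in series 1, 54 in series 2 and 43 in SKNAS. The median over all genes lay between -0.14 and 0.06 in series 1, between -0.18 and 0.01 in series 2 and between -0.98 and 0.46 in SKNAS. In SKNAS the members did not stand above all genes at every CT. At CT52 their median was 0.12 against 0.40 for all genes, and at CT64 0.50 against 0.46.

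A 24 h rhythm was not called for any member in any of the 4 groups (limma F test of a cosine and sine term). In SHEP MYC-OFF 0.0911% of genes were called, and 4 members had an unadjusted p under 0.05, as did 10.4% of genes. In SHEP MYC-ON 0.021% of genes were called, and 1 member had an unadjusted p under 0.05 against 10.7% of genes. In both SKNAS groups 0% of genes were called, and 0 members had an unadjusted p under 0.05, against 0.446% of genes in MYC-OFF and 0.344% in MYC-ON.

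Genes that work with the mitochondrial ribosome moved largely the same way in SHEP. All 5 subunits that do not carry an MRP symbol were called higher: PTCD3 (1.02), GADD45GIP1 (0.44), DAP3 (0.27), AURKAIP1 (0.21) and CHCHD1 (0.19). In SKNAS 1 of these 5, GADD45GIP1 (0.54), was called. With the library median as covariate GADD45GIP1 stood at 0.05 (adjusted p = 0.613, limma). PTCD3 alone was called in that fit, at 1.13 (adjusted p = 1.57e-08, limma). Of 27 assembly factors 23 were called higher in SHEP and 1 lower, and 13 and 0 in SKNAS. Over all genes tested 33% were called higher and 38.9% lower in SHEP, and 13.7% and 34.4% in SKNAS. With the library median as covariate in SKNAS, 21 assembly factors were higher (28.3% of genes) and 1 lower (26.1%). The largest SHEP rises among the assembly factors were those of C1QBP (1.23), the RNA methyltransferase MRM3 (1.16) and the GTPase GTPBP10 (0.92). NGRN fell by 0.21.

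Of 15 mitochondrial translation factors 12 were called higher in SHEP (33% of all genes) and 2 lower (38.9%). In SKNAS 9 were called higher (13.7%) and 1 lower (34.4%), and with the covariate 11 (28.3%) and 1 (26.1%). SLIRP, which binds mitochondrial mRNA together with LRPPRC, rose most (1.25), then the initiation factor MTIF2 (1.15) and the formyltransferase MTFMT (1.07). The elongation factor TUFM went from 248.3 to 450.3 TPM (0.86). GFM2, which acts in ribosome recycling, fell in both lines, by 0.22 (adjusted p = 2.12e-06) and by 0.93 (adjusted p = 1.59e-04), and C12orf65, a release factor homologue, fell by 0.32 in SHEP.

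The genes outside the family whose MYC-ON minus MYC-OFF values over the 41 pairs of libraries were most like the members' median were UQCRFS1 (Pearson's r = 0.88), PSMB4 (0.83) and CIAO2A (0.82), of 12228 genes. These pairs share cultures and libraries within a series. UQCRFS1, a subunit of respiratory complex III, rose by 0.51 in SHEP and stood at 0.29 in SKNAS (adjusted p = 0.0578, limma). PSMB4, a proteasome subunit, fell in SHEP (-0.22) and in SKNAS (-0.28), opposite in direction to most members.

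Members with exons that overlap another expressed gene number 27, and those with pseudogene copies 35, of which 2 (MRPL45 and MRPS31) had copies with over 5% of the summed TPM. MRPS14 shares exon sequence with CACYBP on the opposite strand, at a mean of 212.8 TPM. The canonical transcripts of the members are short, with a median of 1242 bases against 2913 for all genes tested in SHEP, and their median GC content was 48.2% against 48.3%. Across members the SHEP difference had a Spearman correlation of 0.18 with transcript length and -0.09 with GC content.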

How the data were processed

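Reads of poly-A RNA, sequenced as pairs, had been cleared of adaptor and low-quality reads. The authors quantified them with Salmon 1.3.0 on a GRCh38 Gencode transcriptome and collapsed transcripts to genes. The table they deposited holds TPM per gene, summing to 1e+06 in each of 83 libraries. Read depth per library was not used here, since TPM do not keep it, so counting error is unknown. The members, lists and motifs were chosen with earlier results of these data known. Groups came from the labels.

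From the TPM, log2(TPM + 1) was fitted with limma 3.58.1 in R 4.3.3 over all genes with a mean of at least 1 TPM, with CT as a factor, and Benjamini-Hochberg adjusted p over all genes tested. Calls needed an adjusted p of at most 0.05 and, except for slopes and rhythm, 0.15 on the log2 scale. A fold on this scale understates changes of low genes. The fits treat each CT of a series as a replicate. The scripts were tested on simulated data. The reported means carry the SD over libraries. Alternatives were another pseudocount (0.1), no filter, median-of-ratios rescaling, an intensity trend, a replicate block, each series left out, series means, the library median as covariate and high-median libraries only. Leaving out the library of series 2 at CT76, and each series in the time fits, was added after seeing the data. Whether strand was used in quantification is not given in the sources used here.

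Genes were named by rule: members called lower in either line, the 5 largest and 3 smallest SHEP differences per subunit, members called in the interaction, the 3 highest and 3 lowest levels, S18 homologues, members with further roles, genes of the related lists that fell or rose most, and the 3 genes most like the members. Others named are examples chosen after their values were seen. Coordinates are from Gencode 44 (GRCh38), promoters from RefSeq (GRCh38.p14). The level of 1 marker gene is not reported here.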

Additional observations from a re-analysis of the deposited data

Results flagged for a closer look

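For 34 members the MYC-ON minus MYC-OFF difference was not the same in the 2 lines by the interaction test (limma, adjusted p of at most 0.05 over 14870 genes, and 0.15 or more on the log2 scale), and each value given here is the SKNAS difference minus the SHEP difference. Of all genes, 38.1% were called smaller in SKNAS and 13.4% larger, against 24 and 10 members. After rescaling by size factors 5 members were smaller and 20 larger.

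The difference was smaller in SKNAS for 9 small subunit members: MRPS2 at -0.72, MRPS11 at -0.51, MRPS10 at -0.32, MRPS25 at -0.25, MRPS18A at -0.24, MRPS16 at -0.23, MRPS15 at -0.20, MRPS6 at -0.20 and MRPS30 at -0.17. With the library median as covariate, MRPS10, MRPS18A and MRPS30 were no longer called, at adjusted p = 0.204, 0.164 and 0.518.

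It was also smaller for 15 large subunit members. MRPL3 stood at -0.59, MRPL30 at -0.54, MRPL16 at -0.53, MRPL32 at -0.52, MRPL19 at -0.50 and MRPL57 at -0.49. MRPL45 followed at -0.49, MRPL46 at -0.44, MRPL40 at -0.43, MRPL34 at -0.42 and MRPL39 at -0.36. The smallest were MRPL4 at -0.32, MRPL33 at -0.30, MRPL22 at -0.29 and MRPL28 at -0.23. With the covariate, MRPL3 (-0.17), MRPL19 (-0.08) and MRPL34 (-0.29) were no longer called. In the SKNAS libraries with a median of at least 3.8, the MYC-ON minus MYC-OFF difference itself was 0.96 for MRPL3, 0.61 for MRPL30 and 0.53 for MRPL19, beside 0.95, 0.64 and 0.55 in SHEP.

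A larger difference in SKNAS was found for MRPS12 at 0.81, MRPL54 at 0.73, MRPL52 at 0.67, MRPS34 at 0.60, MRPL14 at 0.53, MRPL15 at 0.40, MRPL51 at 0.37, MRPL1 at 0.36, MRPL41 at 0.33 and MRPL38 at 0.23. Of these 10, MRPS12 (0.59), MRPL15 (0.50), MRPL54 (0.33) and MRPL14 (0.30) were called with the covariate too, and MRPL51 (-0.03) and MRPL41 (-0.005) changed sign. The median of log2(TPM + 1) was below 3.8 in 10 of 13 SKNAS MYC-ON libraries, and the interaction was not fitted within the libraries of higher median.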

How the results depend on the processing

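In SHEP the count of members called higher stayed between 59 and 64 under every alternative tried. Members called lower fell from 4 to 2 after rescaling and 2 with series means as replicates. The replicate block gave 63 higher and 4 lower, the same members as without it, so it changed no call. Differences between series 1 and series 2 had a correlation of 0.49 between MYC-OFF and MYC-ON over 14362 genes, a hint from the data that the numbers pair the series, which 2 series cannot settle.

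In SKNAS the members called lower went from 0 to 3 with the library median as covariate and to 4 in libraries with a median of at least 3.8. Among members called with or without the alternative, directions that turned were those of MRPS10 (0.31 rescaled, 0.30 in those libraries), MRPS14 (-0.18 with the covariate), and MRPL52 (-0.81), MRPS16 (-0.0050) and MRPS24 (-0.13) in those libraries. Of members called in neither fit, 10 changed sign with the covariate, 5 rescaled and 8 in those libraries. The median over the 78 members was 0.81 rescaled.

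For the difference between lines, rescaling gave 20 higher and 5 lower with a median of 0.17, and the covariate 6 higher. Without 1 SHEP series, higher ran from 4 to 5 and lower from 12 to 17. In MYC-OFF, lower in SKNAS ran from 7 to 11 without 1 SHEP series. For trends, rescaling gave 1 higher and 0 lower in SHEP MYC-OFF (median 0.017), 19 higher in SHEP MYC-ON, 13 higher for the change of the MYC effect, and medians of 0.35 and 0.21 in SKNAS MYC-OFF and MYC-ON. In SHEP MYC-ON without 1 series, higher ran from 5 to 10 and lower from 18 to 38. The cause of these shifts was not tested. SKNAS has 1 series, so no repeat of it could be left out.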
